A study of Homo sapiens with 9 samples.

Results

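A set of 193 genes was described whose RNA level stepped down at each dose of a miR-1229-3p mimic in SH-Sy5y cells, a human neuroblastoma line grown as a model of neurons of the sympathetic lineage. The 193 were chosen by their own values, out of 14943 genes in the count table and 11676 with a mean of at least 5 CPM (counts-per-million, a gene's count scaled by the total of its library). In every member, all 3 libraries of 10 nM lay below all 3 of Ctrl., all 3 of 20 nM lay below all 3 of 10 nM, and log2 of the ratio of the mean CPM of 20 nM to that of Ctrl. was at most -0.3. In all, 200 genes met these conditions, and 7 of them were among 13 genes left out by name.

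The experiment asked which RNAs respond when miR-1229-3p is raised. The cells were transfected for 48 h with 40 pmol of a negative control oligonucleotide (Ctrl.), with 20 pmol of the control plus 20 pmol of mimic (10 nM), or with 40 pmol of mimic (20 nM). Each group had 3 replicates, numbered 1 to 3 in the sample titles, and the total oligonucleotide was thus equal in all groups. All cells came from a single line, RNA of a pair of wells was pooled for a library where possible, and no source says that the replicates were separate passages. Polyadenylated RNA gave 17423969 to 28192775 estimated counts per library. All of a list of 17 noradrenergic markers, used to check the cell type, were in the table, 16 of them at a mean of at least 5 CPM, with a summed level of 7920 to 8170 CPM in Ctrl., 8210 to 8890 at 10 nM and 7910 to 8930 at 20 nM. Of 25 markers of other cell types, 11 were in the table and 5 (COL1A1, COL3A1, DCN, LUM and PDGFRB) reached 5 CPM, with sums of 218 to 286, 213 to 290 and 184 to 267 CPM. In such bulk libraries, fewer cells of a kind and less RNA per cell cannot be told apart. The library of 20 nM replicate 3 stood somewhat apart: the median gene of at least 5 CPM was at -0.053 on the log2 scale against the mean of Ctrl. there, and between -0.008 and 0.007 in the other 8 libraries.

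MicroRNAs are short RNAs that guide Argonaute proteins to messenger RNAs. Pairing rests mainly on the seed, the bases near the 5′ end of the microRNA, with sites in the 3′ untranslated region (UTR), and it usually lowers the RNA level and the translation of a target by a modest amount. A mimic is a synthetic double-stranded RNA that loads the same guide strand, so a direct target can be lowered in steps as the dose rises, but so can genes downstream of a target. MiR-1229-3p is made from an intron of its host gene as a mirtron, a hairpin released by splicing.

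The mature sequence (RefSeq, with the seed, bases 2 to 8, in capitals) is shown because all site counts below derive from it.

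miR-1229-3p: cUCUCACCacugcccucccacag

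The best match to this seed is the 8-mer GGTGAGAA, which pairs with bases 2 to 8 and has an A opposite base 1. The 7-mer GGTGAGA pairs with bases 2 to 8, the 7-mer GTGAGAA pairs with bases 2 to 7 and has the A, and the 6-mer GTGAGA pairs with bases 2 to 7. These were searched on the sense strand only, and each stretch was counted once under its best kind. The following 3′ UTR sites (GENCODE 44 on GRCh38, sense strand written 5′ to 3′, matched bases in capitals) belong to members whose values are given later, and were picked to show the 8-mer and both kinds of 7-mer.

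NTNG2, chr9:132242173-132242200, plus strand, 8-mer: gccggcgtccgaggccgggcGGTGAGAA
ZNF780B, chr19:40033436-40033463, minus strand, 8-mer: agttcagagaagataattttGGTGAGAA
ZNF780B, chr19:40034188-40034215, minus strand, 8-mer: tacatcagagaattcatactGGTGAGAA
DENND11, chr7:141658443-141658470, minus strand, 8-mer: gtaccttgtagttagaccgaGGTGAGAA
DENND11, chr7:141660494-141660521, minus strand, 8-mer: tgctggtgtaaacatagcagGGTGAGAA
OTUD7B, chr1:149943077-149943104, minus strand, 8-mer: ttgtttaaagggaagagtgtGGTGAGAA
OTUD7B, chr1:149939591-149939618, minus strand, 8-mer: gccccagacatatagccacaGGTGAGAA
OTUD7B, chr1:149938534-149938561, minus strand, 8-mer: gctcttgaatgaaggatggtGGTGAGAA
PLEKHA8, chr7:30081594-30081621, plus strand, 8-mer: tcaccattactgtgagaggaGGTGAGAA
TLCD5, chr11:120333350-120333377, plus strand, 8-mer: gtatgtaggtttttttgaatGGTGAGAA
SOX4, chr6:21596853-21596880, plus strand, 7-mer to bases 2 to 8: tttctacgtgaaatcagtgaGGTGAGAc
EVL, chr14:100138562-100138589, plus strand, 7-mer to bases 2 to 8: ccttgcagagctgaacaggtGGTGAGAg
IGFBPL1, chr9:38409044-38409071, minus strand, 7-mer with A: tagtttttagcagggcaaacaGTGAGAA
ANK3, chr10:60026526-60026553, minus strand, 7-mer with A: ttggctgtatgacagggatatGTGAGAA

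Further matches lay inside coding sequences, in members that encode zinc finger proteins. The 3′ UTR window of ZNF780B that starts at chr19:40034188 resembles them in the bases before the match. These windows are shown because the matched bases recur at the same place in different fingers. The windows printed for ZNF420 and ZNF780B are not from neighbouring fingers.

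ZNF420, chr19:37127878-37127905, plus strand, coding, 8-mer: tgcataagagaattcataccGGTGAGAA
ZNF420, chr19:37128466-37128493, plus strand, coding, 8-mer: aacatcagagaatccatactGGTGAGAA
ZNF420, chr19:37128886-37128913, plus strand, coding, 8-mer: ggcatcagagaattcatactGGTGAGAA
ZNF780B, chr19:40035279-40035306, minus strand, coding, 8-mer: aacatcagagtattcacactGGTGAGAA
ZNF780B, chr19:40034691-40034718, minus strand, coding, 8-mer: aacattaccgaattcatactGGTGAGAA
ZNF546, chr19:40014559-40014586, plus strand, coding, 8-mer: gacatcgtagaattcatactGGTGAGAA
ZNF283, chr19:43847356-43847383, plus strand, coding, 8-mer: tgcatcagagatttcatactGGTGAGAA

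Groups in descending order with no overlap were found for 306 of the 11676 genes of at least 5 CPM (2.62%), and in ascending order for 237 (2.03%). Of the 306, 106 fell short of the fold threshold. The mirrored rule for genes rising at each dose, with the same size of ratio and no gene left out by name, gave 185 rising genes, which are used below as a comparison for sequence features. The median log2 ratio of the 193 members was -0.20 at 10 nM (range -0.78 to -0.04) and -0.46 at 20 nM (range -1.09 to -0.30). These values chose the members and are a description without a test. At the threshold, CAMK2D (-0.301), UNC5B (-0.303) and NFYB (-0.303) were just inside, and VPS41 (-0.30, above the threshold before rounding), CARHSP1 (-0.299) and TMEM106C (-0.299) were just outside. The mean CPM of Ctrl. among members had a median of 49.5 and ran from 6.15 to 1140, and the lowest count of any member in any library was 69. Some members have near-identical copies that can exchange reads in such counts, among them TMSB15A and TMSB15B as well as GTF2IP1 and GTF2IP4, and their values are uncertain.

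**Figure D1:**
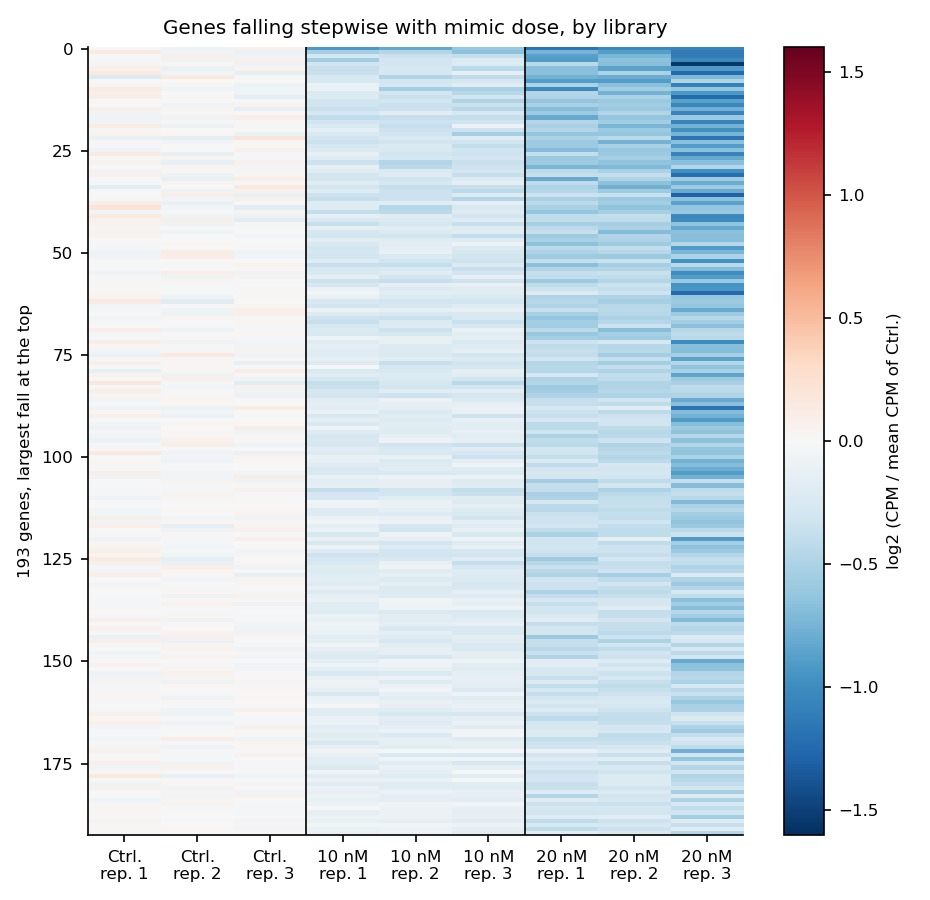
Heat map of log2 of CPM over the mean CPM of Ctrl. for the 193 members (rows, largest fall at 20 nM at the top) in the 9 libraries (columns). Colour deepens from Ctrl. to 10 nM to 20 nM by the choice of the rows, and within 20 nM the column of replicate 3 is the darkest (median -0.59, against -0.40 in both others).

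The libraries of 10 nM were alike in their members' median log2 level against Ctrl. (-0.20, -0.21 and -0.21), whereas those of 20 nM were at -0.40, -0.40 and -0.59. Replicate 3 of 20 nM was the lowest of its group in 136 of the 193 members, replicate 1 in 32 and replicate 2 in 25. Without that library, 216 genes met the rule, 161 of them members. Without replicate 1 of 20 nM, 359 genes met it, 188 of them members. Leaving out a library cannot break the order of the groups, so members could be lost only through the fold or level threshold. With CPM computed from TMM-scaled totals, 150 genes met it, 149 of them members.

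A quasi-likelihood test in edgeR with 1 surrogate variable was fitted over all genes, and its calls, at an adjusted p under 0.05, are given only as a description because each contrast entered the rule. At 20 nM against Ctrl., 176 of 193 members (91.2%) were called lower, beside 6.08% of all 14943 genes called lower and 7.8% called higher. At 10 nM against Ctrl., 28 members (14.5%) were called lower, beside 0.428% of all genes called lower and 0.221% called higher. From 10 to 20 nM, 44 members (22.8%) were called lower, beside 0.883% of all genes lower and 1.91% higher. The first of these contrasts was called in nearly all members and each single step in far fewer. Both steps were called in 13 members, a count with no share over all genes beside it. Those 13 included IGFBPL1, GPC2, NUMB, ANLN, BRI3, TMEM245, GPAT4, ATP6V1A, ASB1, PTPN1, KIDINS220 and ZNF595, of which only IGFBPL1 and GPC2 are under the rule for named genes and the others are listed because their count was singled out after their values were seen. When the surrogate variable was replaced by a block for the replicate number, 183 members were called lower at 20 nM, 1 (IGFBPL1) at 10 nM and 5 (NREP, NTNG2, OCRL, SZRD1 and ZFTA) from 10 to 20 nM. Over all genes, the same block gave 897, 3 and 16 called lower. Calls of members at 10 nM moved to 12 without Ctrl. replicate 1, 17 without Ctrl. replicate 3, 15 without 10 nM replicate 1 or 2, 13 without 10 nM replicate 3 and 112 without 20 nM replicate 3. From 10 to 20 nM they moved to 27, 19 and 21 without 10 nM replicates 1, 2 and 3, and to 8, 18 and 101 without 20 nM replicates 1, 2 and 3. Over all genes, calls lower at 10 nM went from 64 to 27 and 34 without those Ctrl. replicates. They were 39, 34 and 29 without 10 nM replicates 1, 2 and 3, and 608 without 20 nM replicate 3. From 10 to 20 nM, all genes called lower went from 132 to 75, 70 and 56 without 10 nM replicates 1, 2 and 3. They were 18, 47 and 673 without 20 nM replicates 1, 2 and 3.

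The largest fall was that of IGFBPL1, which encodes a secreted protein related to the insulin-like growth factor binding proteins. Its level was 563, 529 and 589 CPM in Ctrl., 295, 317 and 368 CPM at 10 nM and 247, 273 and 268 CPM at 20 nM. The lowest Ctrl. library was 161 CPM above the highest of 10 nM, so most of the decrease was reached at the lower dose, and the fitted log2 fold change at 20 nM was -1.14 ± 0.08 (SE). In log2 terms 71.2% of its fall was present at 10 nM. The gene lies on chr9:38406528-38424454 and its 3′ UTR held a single 7-mer, the window printed above.

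Next to IGFBPL1, the named members included 4 that encode proteins of the cell surface: NTNG2, SDC4, GPC2 and UNC5B. NTNG2 encodes netrin-G2, a membrane-anchored adhesion protein of axons, and was at 32.8, 34.8 and 31.4 CPM in Ctrl., 27.1, 26.1 and 25.3 at 10 nM and 18, 19.8 and 15.2 at 20 nM. Its larger drop was the second one: 37.3% of the fall was present at 10 nM, and the fitted log2 fold change at 20 nM was -0.77 ± 0.08 (SE). SDC4, encoding the heparan sulfate proteoglycan syndecan-4, was at 19.5, 19 and 20.7 CPM in Ctrl., 13.4, 16 and 17 at 10 nM and 10.6, 12.5 and 9.63 at 20 nM. Its 3′ UTR of 1976 bases held none of the searched matches, and its libraries at 10 nM were spread more widely than those of NTNG2. GPC2, encoding glypican-2, a heparan sulfate proteoglycan known from neuroblastoma cells, was at 131, 130 and 129 CPM in Ctrl., 109, 106 and 108 at 10 nM and 70.0, 69.7 and 93.3 at 20 nM. For GPC2 the replicate 3 library of 20 nM was the highest of its group rather than the lowest, and the fitted log2 fold change was -0.90 ± 0.06 (SE). UNC5B, which encodes a receptor for netrin-1, had the highest level of all members, at 1150, 1170 and 1110 CPM in Ctrl., 1060, 1070 and 1030 at 10 nM and 863, 909 and 1010 at 20 nM. By the ratio of means, -0.303, it was among the smallest falls. Its fitted log2 fold change of -0.37 ± 0.05 (SE) was close to the median of the members in the fit, -0.38. The 3′ UTR of UNC5B held no match.

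ANK3, encoding ankyrin-G, the scaffold of the axon initial segment, was at 8.85, 11.5 and 10.4 CPM in Ctrl., 8.60, 7.36 and 7.75 at 10 nM and 6.10, 5.95 and 6.25 at 20 nM. Between the lowest Ctrl. and the highest 10 nM library the gap was small, while the 20 nM libraries lay close together. YPEL1, a member of the conserved yippee-like family, was at 27.8, 24.7 and 24.4 CPM, 23.9, 17.7 and 17.9 CPM, and 12.7, 17.6 and 16.8 CPM in the same order. Here the 10 nM and 20 nM libraries nearly touched, at 17.7 and 17.6 CPM.

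**Figure D2:**
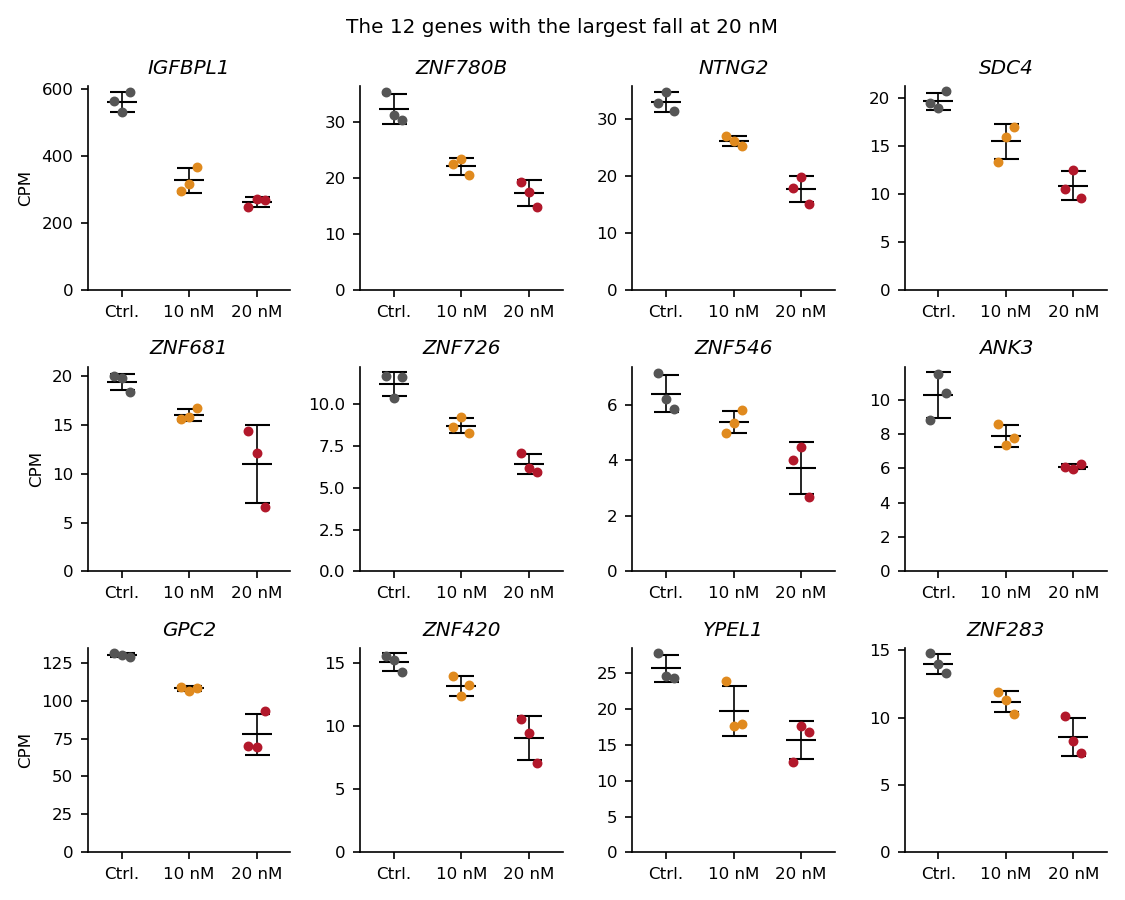
CPM in each library (points) for the 12 members with the largest fall at 20 nM, with the group mean and SD (bars, n = 3), on linear axes that start at 0. No groups overlap, as the rule requires, and IGFBPL1 (560 to 327 to 263 CPM in the mean) shows the largest drop at the first dose.

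Among members with a known role in the cytoskeleton were STMN1, which encodes stathmin, a protein that binds tubulin and favours microtubule disassembly, and DCLK1, a microtubule-associated kinase related to doublecortin. STMN1 was at 675, 655 and 679 CPM in Ctrl., 601, 595 and 568 at 10 nM and 537, 519 and 370 at 20 nM. Replicate 3 was far below the other 2 libraries of its group, and the fitted log2 fold change of -0.31 ± 0.04 (SE) was smaller than the ratio of means, -0.50. DCLK1 was at 30.5, 31.9 and 33.4 CPM, 27.2, 27 and 25.6 CPM, and 19.8, 21 and 20.1 CPM in the 3 groups. Its replicates were close together at each dose, and 40.3% of its fall was present at 10 nM. PAK1, a kinase downstream of the small GTPases RAC1 and CDC42, was at a mean log2 ratio of -0.34 at 20 nM, and EVL, an actin regulator of the Ena/VASP family, at -0.31. TMOD1, which caps the slow-growing ends of actin filaments, was at 382, 379 and 384 CPM in Ctrl., 364, 356 and 329 at 10 nM and 317, 295 and 235 at 20 nM. TMSB10, which binds actin monomers, was at 408, 417 and 447 CPM, 391, 387 and 398 CPM, and 340, 384 and 227 CPM in the same order. The low value of TMSB10 in 20 nM replicate 3 widened its spread, and it was 1 of 17 members not called at 20 nM.

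The list of 45 actin and microtubule regulators of neurites held 4 members (STMN1, DCLK1, PAK1 and EVL). At 20 nM, 16 of its 45 genes were called lower and 3 higher, with a median log2 fold change of -0.08, beside 6.08% and 7.8% of all genes and a median of 0.00. The genes called lower also included PAK3 and ADD2, which were left out of the set by name, and DCX, CRMP1, DPYSL2, DPYSL3, DPYSL4 and STMN2, all of them known from growing neurites. Without a surrogate variable, 9 were called lower, and with the replicate block 11. Over all genes, these settings gave 381 and 897 called lower, against 909 in the main fit. Of 37 RAS and MAPK signalling genes, 2 were members: MAP2K4, a kinase that activates JNK, at a log2 ratio of -0.47, and SOS2, an exchange factor for RAS, at -0.38. In that list 4 genes were called lower at 20 nM and 4 higher. A longer list of 26 noradrenergic neuroblastoma genes was kept apart from the 17 markers above. Among its 25 genes tested, 7 were called lower and 3 higher, and 1, the LIM-homeodomain factor gene ISL1, was a member. ISL1 was at 226, 221 and 242 CPM in Ctrl., 200, 200 and 208 at 10 nM and 196, 182 and 161 at 20 nM, so the 10 nM and 20 nM groups nearly met.

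The other lists held no members. Their counts stand beside 6.08% of all genes called lower at 20 nM and 7.8% called higher, and were not tested against these shares. At 20 nM, 2 of 20 genes of microRNA biogenesis and silencing were called lower and 2 higher, and 2 of 29 genes of deadenylation and decapping lower and 5 higher. In PI3K and MTOR signalling, 1 of 37 was called lower and 5 higher, and in COPI and COPII transport 2 of 41 lower and 6 higher. Of 40 genes that shape the endoplasmic reticulum or its contacts with mitochondria, 6 were called lower, 4 of which (RTN1, ARL6IP1, SYNJ2BP and MTX3) were left out of the set by name, and 7 higher. Of 36 genes of the excitatory synapse and of 42 genes of cullin ligases and deubiquitinases, 2 were called lower and 2 higher in each. The synapse genes called lower included DLGAP4, which was left out of the set by name. Of 30 p53 targets, 1 was called lower and 2 higher. Among 27 interferon-stimulated genes 2 were called higher, and among 11 markers of other cell types 1.

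The 8 members of highest level in Ctrl. also included SOX4, MEX3A and SMARCC1. SOX4, a transcription factor gene of neural and sympathetic progenitors, was at 609, 631 and 575 CPM in Ctrl., 536, 552 and 519 at 10 nM and 410, 455 and 467 at 20 nM. Its highest library of 20 nM was well below its lowest of 10 nM, and the fitted log2 fold change was -0.48 ± 0.06 (SE). MEX3A, encoding an RNA-binding protein, was at 532, 553 and 509 CPM, 485, 475 and 450 CPM, and 392, 400 and 439 CPM in the 3 groups. SMARCC1, a core subunit gene of the BAF chromatin remodelling complexes, was at 365, 361 and 353 CPM, 324, 336 and 322 CPM, and 289, 294 and 288 CPM, with evenly spaced and tight groups.

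Members with many 7-mer or 8-mer sites in the 3′ UTR were OTUD7B with 5, TLCD5 with 4, and ZNF780B, FRK, DENND11, MYEF2 and PLEKHA8 with 3 each. OTUD7B, a deubiquitinase gene and the only member with 3 8-mers, was at 51.3, 49.9 and 50.1 CPM in Ctrl., 46.1, 42.9 and 42.6 at 10 nM and 39.8, 38.3 and 36.4 at 20 nM. Its fall was even over the doses, with 50.1% present at 10 nM, and its fitted log2 fold change at 20 nM was -0.34 ± 0.06 (SE). DENND11, with 8-mers at both windows printed above, was at 84.4, 83.1 and 76.3 CPM, 68.6, 65.4 and 55.5 CPM, and 52.8, 52.4 and 48.3 CPM. It fell further than OTUD7B, to -0.58 ± 0.08 (SE) in the fit. TLCD5 was at 17, 18.4 and 18.6 CPM, 15.7, 15.8 and 15.7 CPM, and 14, 15.5 and 13.7 CPM. A larger number of sites did not go with a larger fall among these genes: their log2 ratios of means ran from -0.32 in TLCD5 to -0.91 in ZNF780B. FRK, which encodes a kinase related to the SRC family, was at -0.70 and the lipid transfer gene PLEKHA8 at -0.38, and MYEF2 was at -0.45.

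The rule requires a drop at both steps, so genes lowered fully or not at all at 10 nM could not be members. Within that limit, the share of the fall present at 10 nM was measured as the log2 ratio at 10 nM over that at 20 nM. Its median was 44.2% over the 193 members, with quartiles at 36.1 and 51.2%. The extremes were PITPNB with 85% and PARP15 with 13.2%, named for being the ends of this range. PITPNB, encoding a phosphatidylinositol transfer protein, went from 107 to 82.8 to 79.1 CPM in the group means, and PARP15, encoding an ADP-ribosyltransferase, from 13.3 to 12.9 to 10.6 CPM. In 57 members more than 50% of the fall was present at 10 nM and in 37 less than 33%. Within replicate numbers 1, 2 and 3 the median share was 50.4, 48.6 and 37.4%, the last from the set that holds the low 20 nM library, and without that library it was 50.1%.

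**Figure D3:**
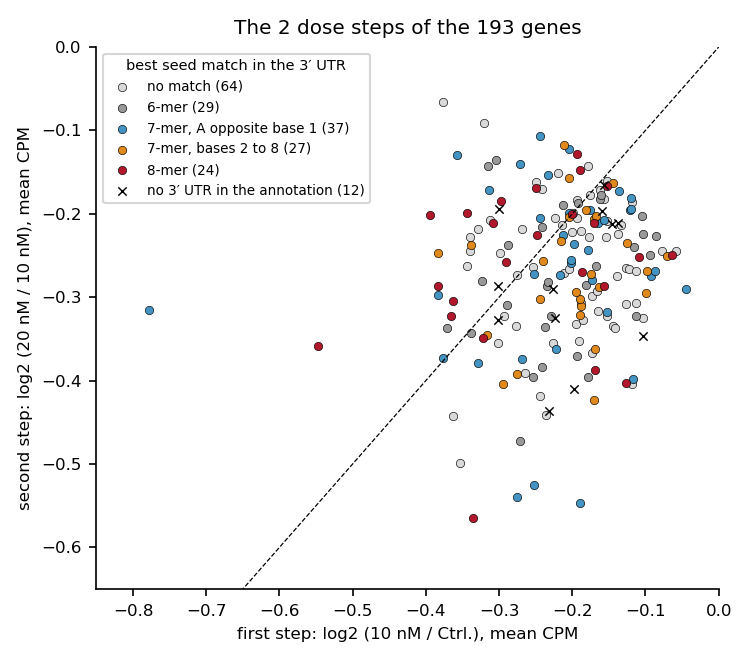
Each point is a member, with the log2 ratio of mean CPM from Ctrl. to 10 nM on the x axis and from 10 to 20 nM on the y axis, coloured by its best seed match in the 3′ UTR; the dashed line marks equal steps. IGFBPL1 lies alone at -0.78 on the x axis, and the 24 members with an 8-mer have a median share of 52.6% at 10 nM against 43.6% in the 64 without any match.

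Seed matches were not used by the rule. A 3′ UTR of at least 50 bases was found for 181 of the 193 members, and 88 of these (48.6%) held a 7-mer or 8-mer for miR-1229-3p. The share was 16.8% among the rising genes (31 of 184) and 23.3% among all genes of at least 5 CPM (2628 of 11278). For the 8-mer it was 13.3% of members (24), 2.17% of rising genes (4) and 4.81% of all (543). At least 2 such sites were present in 25 members (13.8%, against 6.38% of all). No searched match, not even a 6-mer, was present in 64 members (35.4%, against 60.8% of all). With the canonical transcript in place of the longest 3′ UTR, 46.7% of members, 14.1% of rising genes and 21.6% of all held a 7-mer or 8-mer.

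The 3′ UTRs of members were longer than those of the other sets, and a longer sequence holds more matches to any short motif. Their median length was 2650 bases, against 1700 in rising genes and 1630 in all, and their median G plus C content was 40.4%, against 46.5 and 42.7%. Per 1000 bases of 3′ UTR, members held 0.225 7-mers and 8-mers, rising genes 0.09 and all genes 0.14. When genes were split into 3 equal classes of length at 979 and 2522 bases, the share with a site was 15.4, 29.8 and 68.4% in short, middle and long 3′ UTRs of members. It was 1.72, 10.9 and 37.1% in rising genes and 5.77, 19.1 and 45.1% in all genes. The order of the 3 sets was thus the same in each class of length. The same count for 4 other microRNAs gave smaller differences between members and all genes: 26.5 against 20.2% for let-7a-5p, 34.8 against 25.8% for miR-9-5p, 37 against 31.9% for miR-16-5p and 20.4 against 16.2% for miR-1229-5p, the other arm of the hairpin.

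**Figure D4:**
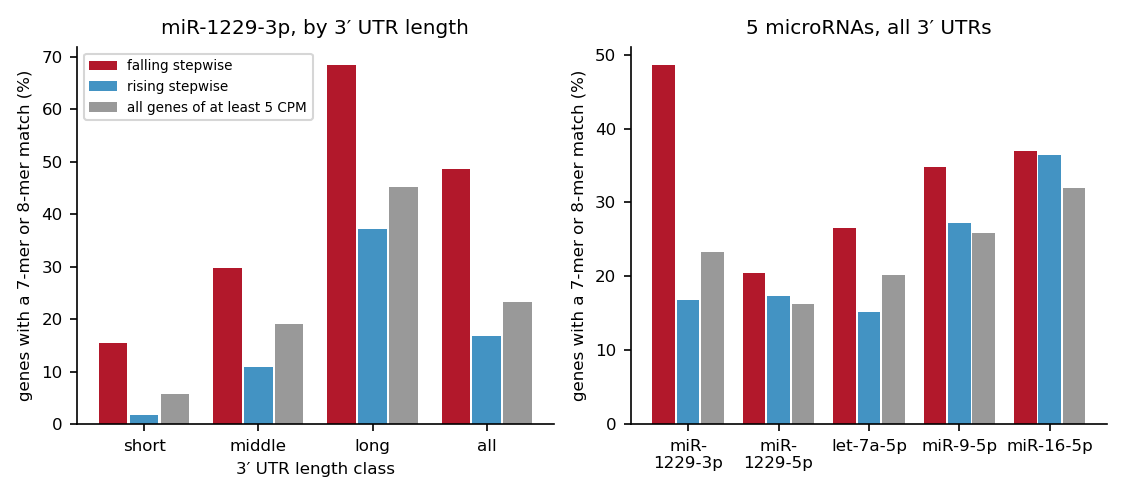
Share of genes, in percent, whose 3′ UTR holds a seed match of 7 or 8 bases, for the falling set, the mirrored rising set and all genes of at least 5 CPM. On the left, miR-1229-3p by class of 3′ UTR length, where the falling set is highest in each; on the right, 5 microRNAs over all lengths, where the gap is widest for miR-1229-3p (48.6 against 23.3%).

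Among members, the median fall differed little between the kinds of match, and the share of it present at 10 nM was highest with an 8-mer. Members with an 8-mer had a median log2 ratio of -0.50 at 20 nM, those with a 7-mer to bases 2 to 8 or with the A both -0.45, those with a 6-mer -0.47 and those without a match -0.45. The median share present at 10 nM was 52.6% with an 8-mer (quartiles 40.1 and 59.4), 42.1 and 44% with the 7-mers, 41.5% with a 6-mer and 43.6% with none (quartiles 35 and 50.1). Over 50% was present at 10 nM in 14 of 24 members with an 8-mer and 17 of 64 without a match. These are descriptions of overlapping distributions and were not tested. Ordered by the size of the fall, 49.2% of the first 64 members held a 7-mer or 8-mer, 44.3% of the next 64 and 52.5% of the last 65.

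Genes named ZNF followed by a number, most of which encode DNA-binding proteins with tandem C2H2 zinc fingers, made up 24 of the 193 members (12.4%), 1 of the 185 rising genes (0.541%) and 425 of the 11676 genes of at least 5 CPM (3.64%). This family was taken up after the members had been seen. Among its members, 11 of 23 with annotated transcripts lay on chromosome 19, as did 200 of all 416. ZNF780B was at 35.4, 31.3 and 30.4 CPM in Ctrl., 22.5, 23.4 and 20.5 at 10 nM and 19.4, 17.6 and 14.8 at 20 nM. This was the largest fall of the family, with -0.76 ± 0.09 (SE) in the fit. ZNF420 was at 15.6, 15.3 and 14.3 CPM, 14, 12.4 and 13.3 CPM, and 10.6, 9.47 and 7.13 CPM. ZNF546 was at 7.13, 6.21 and 5.83 CPM, 4.99, 5.32 and 5.80 CPM, and 4.01, 4.49 and 2.69 CPM, with a narrow gap at the first step. ZNF283 was at 14.8, 14 and 13.3 CPM, 11.9, 11.3 and 10.3 CPM, and 10.1, 8.28 and 7.38 CPM. In all 4 of these genes the lowest library was 20 nM replicate 3. That library was also the lowest for ZNF681, at 6.58 CPM beside 14.4 and 12.1 CPM in the other 2 of its group, and for ZNF726, at 7.07, 6.21 and 5.97 CPM in replicates 1, 2 and 3.

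Over all ZNF members, the median log2 level against Ctrl. was -0.22, -0.25 and -0.20 in the 10 nM libraries and -0.41, -0.44 and -0.92 in those of 20 nM. The low value in 20 nM replicate 3 was shared by ZNF genes in general, including those without any coding match (median -0.47, against -0.08 and -0.11 in replicates 1 and 2). When that library was left out, 20 of the 216 genes that met the rule were ZNF genes. Of 508 ZNF genes tested, 47 were called lower at 20 nM and 7 higher, beside 6.08% and 7.8% of all genes. The 47 include members, which were chosen for their fall. Among ZNF genes of at least 5 CPM that were not members, 14 of 230 without a coding match were called lower and 2 higher. With 1 or 2 matches it was 6 and 4 of 123, and with 3 or more 5 and 1 of 40. Of the 508, 363 (71.5%) had a negative fitted log2 fold change, with a median of -0.10. The 47 became 98 with the replicate block, 27 without Ctrl. replicate 1, 21 without 20 nM replicate 2 and 127 without 20 nM replicate 3. Over all 14943 genes, 909 were called lower in the main fit and 897, 658, 440 and 2074 in these settings. Reads of ZNF genes with near-identical fingers can be shared out between them by the quantification, so single ZNF values are less certain than the others.

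The 3′ UTRs of ZNF members held a 7-mer or 8-mer in 9 of 23 cases (39.1%), against 37.3% of all ZNF genes of at least 5 CPM. In their coding sequences it was 15 of 23 (65.2%), against 178 of 416 (42.8%) of all ZNF genes and 17.4% of other genes. At least 3 coding sites were present in 8 ZNF members (34.8%), 11.5% of all ZNF genes and 0.576% of other genes. ZNF420 held 12 coding sites, ZNF780B and ZNF546 11 each and ZNF283 10. Other members held 0.146 coding sites per 1000 bases, close to the 0.124 of other genes in general, and ZNF members 1.74.

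The coding sites were spaced by the repeat of the fingers. Of 69 sites in ZNF members, 55 were 8-mers and 54 were read in frame as codons for glycine, glutamate and lysine. In 44 these 3 were preceded by threonine and followed by proline, the usual linker between adjacent C2H2 fingers. Of 54 distances between neighbouring sites in the same gene, 46 were multiples of 84 bases and 27 were 84 bases. Among all ZNF genes of at least 5 CPM, 223 of 408 sites (54.7%) were in the same glycine, glutamate and lysine frame, and among other genes 9.53%.

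Fitted changes of ZNF genes against Ctrl. were ordered by the number of coding sites. At 20 nM the median log2 fold change was -0.06 in 238 genes without a coding site, -0.09 in 130 with 1 or 2, -0.19 in 48 with 3 or more and -0.30 in the 16 of these with 5 or more. At 10 nM the medians were -0.04, -0.05, -0.12 and -0.20. All 16 genes with 5 or more sites had a negative fold change at both doses, as had 66.8% of those without a site at 20 nM. Of the 16, 6 were members, as were 8 of the 238 without a site. Leaving aside the members, which were chosen for their fall, the medians at 20 nM were -0.05, -0.08, -0.16 and -0.24 in 230, 123, 40 and 10 genes. All 10 of the last class were negative at both doses, as were 65.7% of the 230 at 20 nM. From 10 to 20 nM the medians of these classes were -0.03, -0.02, -0.05 and -0.01, not in order, with 7 of the 10 negative. With the replicate block they were -0.09, -0.11, -0.15 and -0.16. Genes outside the ZNF family had medians at 20 nM of 0.01 without a site and -0.02 in 63 genes with 3 or more, and at 10 nM of 0.01 and -0.05. In the 10 of these with 5 or more they were -0.09 at 20 nM and -0.06 at 10 nM. Without 20 nM replicate 3 the ZNF medians were -0.08, -0.12, -0.21 and -0.34, and with the replicate block -0.17, -0.21, -0.29 and -0.51. ZNF genes share sequence and reads with each other, so they are not independent points, and the order is given as a description with no test.

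**Figure D5:**
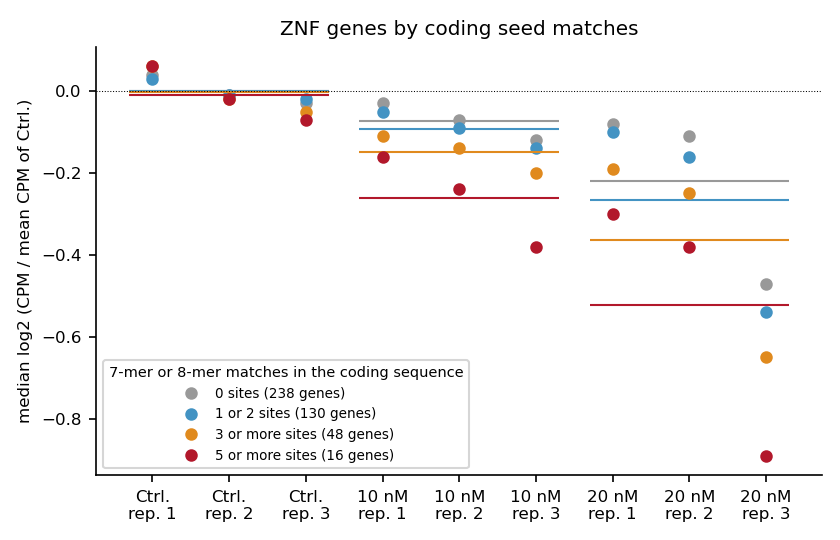
Median log2 of CPM over the mean CPM of Ctrl. in each library (points) for ZNF genes of at least 5 CPM, grouped by 7-mer and 8-mer matches in the coding sequence; the genes with 5 or more are also within those with 3 or more, and lines are means of the 3 libraries' medians. The classes include members, which were chosen for their fall. The order by number of sites holds in each of the 6 mimic libraries, also with members left aside, and all classes are lowest in 20 nM replicate 3.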

How the data were processed

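Per the labels and the study's methods, the authors quantified reads with Salmon on GRCh38.p13, took the annotation from Ensembl, summed counts by gene symbol and removed low genes with filterByExpr of edgeR; the versions of both tools are not given in the sources used here. They deposited estimated counts, 88.8% of them not whole. They also deposited log2 values corrected for surrogate variables, used here only to check the order of the groups, which held in full for 172 of 193 members. The authors' tables of fold changes and p-values were not used.

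Groups, replicate numbers and doses came from the sample labels. Members were found on CPM, computed as the count over the library's total, with no pseudocount. For fold changes, counts were rounded and fitted over all 14943 genes and 9 libraries with edgeR 4.0.16 in R 4.3.3 (TMM scaling, quasi-likelihood test, Benjamini-Hochberg adjustment over all genes). Surrogate variables came from sva 3.50.0 on log2 CPM with a prior count of 2, their number estimated and held between 1 and 3, which gave 1. A standard error (SE) is the log2 fold change over the square root of its F statistic. The fit was tested on simulated data. DESeq2 1.42.0 was an alternative. Tables were handled with pandas 2.3.3 in Python 3.11.15.

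Same-numbered replicates deviated together: the deviations from the group means of log2 values correlated across genes at 0.139 to 0.473 in all 9 same-numbered pairs, so the replicate number was also fitted as a block. Since no source says that replicates came from separate cultures, tests measure the spread between these libraries, which may be technical. Library totals, 17423969 to 28192775 estimated counts, limit the precision of low genes.

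Seed matches were counted in the longest 3′ UTR per gene of GENCODE 44 (at least 50 bases), matched by identifier for 172 members and by symbol for 9. All 187 site windows that were checked, in 3′ UTRs of members and in coding sequences of ZNF members, were equal to the genome sequence at their coordinates. Not every site was checked, and coding sites of other members were not. MiR-124-3p, meant as a further comparison, was not analysed here.

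The members, gene lists and tests were chosen with earlier results of these data known. Genes named were the 12 with the largest fall, the 8 of highest Ctrl. level, the 8 with the most 7-mer and 8-mer sites, the 3 just inside and the 3 just outside the fold threshold, and those in a gene list; some genes under this rule are not reported here. Alternatives were another scaling, no surrogate variable, the replicate block, DESeq2, filters on level, other transcripts and each library left out.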

Additional observations from a re-analysis of the deposited data

How the results depend on the processing

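Without a surrogate variable, 4 genes were called lower at 10 nM, 381 at 20 nM and 6 from 10 to 20 nM, against 64, 909 and 132 with it. With the replicate block in place of the surrogate variable, 3 were called lower at 10 nM, 897 at 20 nM and 16 from 10 to 20 nM. With the test of DESeq2, 107 were called lower at 10 nM. Leaving out 1 library at a time gave 27 to 608 genes at 10 nM, 440 to 2074 at 20 nM and 18 to 673 from 10 to 20 nM; the highest count of each was without 20 nM replicate 3, where 2 surrogate variables were estimated. Scaling by DESeq2 size factors kept each count within 1.5 times. The cause of these changes was not tested.

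The rule gave 216 to 359 members with 1 library left out, the highest without 20 nM replicate 1. Ordered within each replicate number, the pairing of the replicate block, 519 genes met it. All 193 are among them by the rule itself, since groups without overlap are in order in any pairing. Size factors of DESeq2 gave 157 (156 shared) and the deposited corrected values 260 (172 shared). A mean of at least 20 CPM gave 145 and no filter 207. The median share of the fall at 10 nM was 41.8 to 50.1% with 1 library left out. Counting 8-mers alone, 13.3% of members held a 3′ UTR site, against 4.81% of all genes.

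Of 518 values of named genes under the alternatives, 48 were no longer called at 20 nM, in 12 genes, and 3 became called, all of TMSB10. None changed sign. ZNF546, at a mean of 6.39 CPM in Ctrl. and so among the members with the fewest counts, was no longer called under 8 of 14 alternatives.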
